A study of Mus musculus with 4 samples.

Results

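The genes described here are 32 genes of B cell receptor signalling, listed by name, and all 32 were found among the 32285 genes of the deposited matrices. The rule gives names and no threshold, and the names were chosen with earlier results of these data known. The genes were read in blood cells with at least 1 Cd79a UMI (a UMI, or unique molecular identifier, counts 1 captured RNA molecule), of which there were 6278 among 11596 cells kept. The cells were peripheral blood mononuclear cells from mice of 2 inbred strains, BL/6 and SM/J, at ages of 12 months and 20 months, profiled with droplet 3' single-cell RNA sequencing. No treatment or transgene is given in the labels. The ages of a strain were pooled into 1 sequenced sample with tag oligos and later divided by age, so there were 4 matrices, called libraries here, and 1 for each strain and age. Each library held 3 tagged aliquots. The labels do not say whether an aliquot is an animal, so the 3 values show a spread and were not treated as replicates. Differences between strains or ages were therefore not tested, and no p-value is given. Strain and sequenced sample cannot be told apart. Both strains were read against the same mouse reference, and the part that sequence differences of SM/J play in its counts was not tested.

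The B cell receptor is a membrane immunoglobulin held by the signalling chains Cd79a and Cd79b. Antigen binding lets the kinases Lyn and Blk phosphorylate those chains, which recruits Syk and Btk, and adaptors such as Blnk then pass the signal to phospholipase C gamma, to PI3 kinase and to the Vav exchange factors. Calcium, protein kinase C and Ras branches end at the transcription factors NFAT and NF-kappaB, while phosphatases and ubiquitin ligases such as Inpp5d, Ptpn6, Ptpn22 and Cblb restrain the cascade. Among circulating B cells, follicular cells carry the low-affinity IgE receptor Fcer2a (CD23), and plasma cells lack it.

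The 4 libraries held 3398, 3102, 2407 and 2689 kept cells (BL/6 at 12 and 20 months, then SM/J at 12 and 20 months), with a median of 4060, 4914, 4729 and 8837 UMIs per cell. The cells with a Cd79a UMI made up 60.1%, 35.1%, 57.9% and 65.2% of them. These cells were divided by 3 rules. The Fcer2a subset had at least 1 Fcer2a UMI, the Zcwpw1 subset at least 5 UMIs of Zcwpw1, and the Fras1/Lmo7 subset at least 3 UMIs of Fras1 and Lmo7 together. Cells that met only 1 rule entered that subset, and cells that met none are called the rest. In the same order of libraries, the Fcer2a subset held 1013, 417, 314 and 113 cells, the Zcwpw1 subset 41, 6, 16 and 719, the Fras1/Lmo7 subset 10, 8, 303 and 113, and the rest 968, 656, 739 and 610. A further 180 cells of SM/J at 20 months met the Zcwpw1 and the Fras1/Lmo7 rule together. The subsets differed in depth. In SM/J at 20 months the median was 3232 UMIs in the Fcer2a subset, 12391 in the Zcwpw1 subset, 7545 in the Fras1/Lmo7 subset and 18752.5 in the cells that met both rules. Whether those last cells include doublets missed by the caller was not tested. No barcode was shared by the 2 libraries of a strain.

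Marker genes were read in each subset. The summed level of 3 follicular markers (Fcer2a, Cr2 and Ighd) was 1010 to 1347 CPM (counts per 1000000 UMIs) in the Fcer2a subset and 9.95 CPM in the Zcwpw1 subset of SM/J at 20 months. Fcer2a is at 0 there by the rule. The 5 B cell markers Cd79b, Ms4a1, Cd74, Pax5 and Ebf1 were all present in the Zcwpw1 subset, with a sum of 9422 CPM against 11954 CPM in the Fcer2a subset of the same library. A list of 5 plasma cell markers summed to 1911 CPM in the Zcwpw1 subset and 408 CPM in the Fcer2a subset, with 4 of the 5 genes higher in the Zcwpw1 subset. Mzb1 was at 1457 and 333 CPM, Jchain at 314 and 15.9 CPM, Xbp1 at 78.2 and 45.4 CPM and Prdm1 at 61.8 and 13.6 CPM. Sdc1 was near 0 in both, with 3 UMIs in the Zcwpw1 subset (0.308 CPM) and 0 in the Fcer2a subset. A list of 5 B-1 cell markers summed to 386 and 225 CPM (380 to 395 and 135 to 309 CPM over aliquots). Of these, Zbtb32 (88.8 and 2.27 CPM), Bhlhe41 (131 and 20.4 CPM) and Itgam (121 and 83.9 CPM) were higher in the Zcwpw1 subset, and Cd9 (44.5 and 109 CPM) and Cd5 (1.33 and 9.07 CPM) lower. Sums for T cells, monocytes and platelets were lower in the Zcwpw1 subset, and those for erythroid and NK cells higher. The 6 T cell markers summed to 6.05 CPM there and 49.9 CPM in the Fcer2a subset (0 to 111 CPM over its aliquots), and 6 monocyte and macrophage markers to 264 and 610 CPM (218 to 297 and 337 to 976 CPM over aliquots). Erythroid markers summed to 304 CPM (49.3 to 672 CPM over aliquots) in the Zcwpw1 subset and 129 CPM (78.6 to 185 CPM) in the Fcer2a subset, and NK cell markers to 6.56 CPM (1.80 to 16.5 CPM) and 2.27 CPM (0 to 6.18 CPM), so both overlapped over the aliquots. Platelet markers summed to 28.3 and 107 CPM. The part of these other cell types in the ratios was not tested. The subsets are called by their rules below and are given no cell type name.

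**Figure D1:**
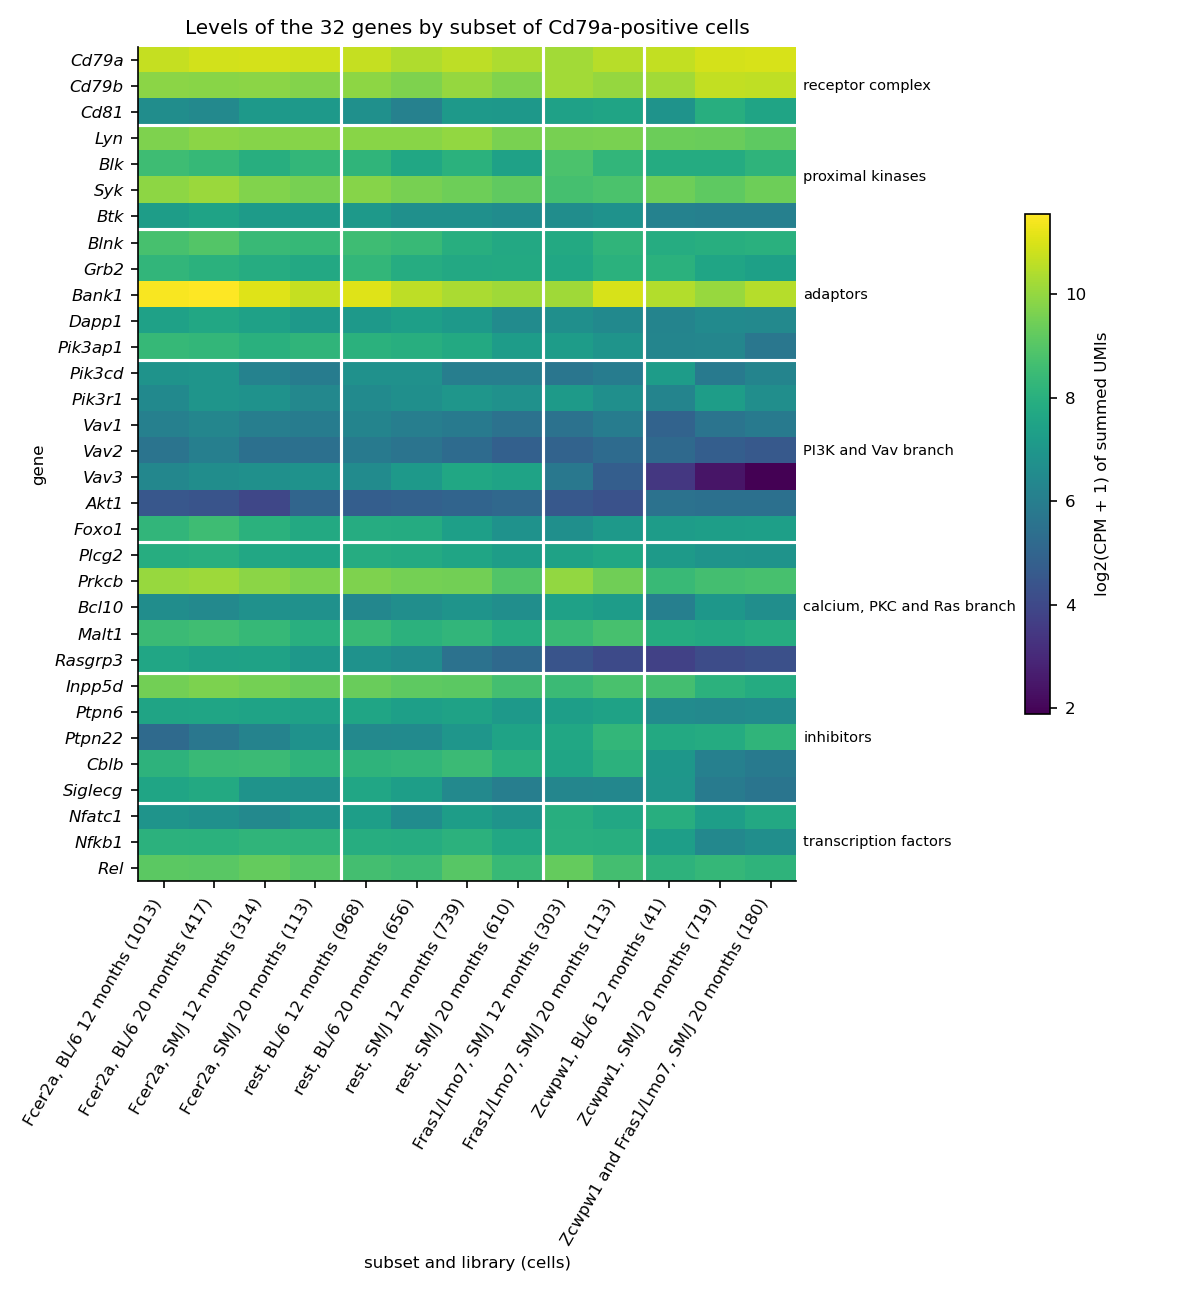
Level of each of the 32 genes as log2(CPM + 1), with 1 row per gene grouped by role and 1 column per subset and library. The column labels give the cell number. Darker colours are lower levels. Within a row, Vav3 is darkest in the columns of Zcwpw1 cells and Rasgrp3 in those of Zcwpw1 and Fras1/Lmo7 cells. Ptpn22 is paler there than in the Fcer2a columns.

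The 31 genes other than Cd79a, summed, took a larger part of the RNA in the Fcer2a subset than in any other subset of the same library, by the whole-library sums. Their sum was 12390 and 13256 CPM in BL/6 at 12 and 20 months and 11272 and 10073 CPM in SM/J. In the Zcwpw1 subset of SM/J at 20 months it was 7680 CPM, with 7730, 7580 and 7733 CPM in the 3 aliquots, all below the 9991 to 10173 CPM of the Fcer2a aliquots. The Fras1/Lmo7 subset of SM/J had 9146 CPM at 12 months, with every aliquot (8990, 9410 and 9013 CPM) below the 10758 to 11717 CPM of the Fcer2a aliquots. At 20 months it had 9703 CPM, and its aliquots of 8794, 10550 and 9251 CPM lay on both sides of the Fcer2a aliquots. Cells with at least 5 Lyz2 UMIs, 1 Csf1r UMI, fewer than 2 Cd3 UMIs and no Cd79a are called monocyte-marked. Their sum was 7172 and 7573 CPM in BL/6 at 12 and 20 months and 10052 and 5172 CPM in SM/J. The sum is thus not particular to B cells. It uses plain totals. TMM scaling, described below, moved the median of all genes by 0.43 between the Zcwpw1 and Fcer2a subsets of SM/J at 20 months. The sum is a share of each cell's RNA and not an amount per cell. On average a cell of the Zcwpw1 subset had 3.48 times the UMIs of a cell of the Fcer2a subset, and 27 of the 31 genes had more UMIs per cell there, beside 95.1% of the 5507 genes that passed the filter described below. The median ratio of UMIs per cell was 2.51 over the 31 genes and 3.03 over all genes.

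The comparison of the Zcwpw1 subset with the Fcer2a subset of SM/J at 20 months asked which steps of the cascade differ between these cells of 1 library. Vav3, Rasgrp3, Cblb, Pik3ap1, Nfkb1, Inpp5d and Btk were at least 2-fold lower in the Zcwpw1 subset as a share of RNA, and Ptpn22 was 2-fold higher. All 31 genes passed the filter (a mean of 20 CPM and 50 UMIs in all). The 7 lower genes were 22.6% of them, beside 17% of the 5507 genes that passed the filter, and the 1 higher gene was 3.23%, beside 8.79%. The share of lower genes was thus close to the background, and 24 of the 31 lay below 0, beside 58.8% of all genes. Their median log2 ratio was −0.47, against −0.20 over all genes. With TMM scaling, which sets the totals from genes that change little, the median of all genes moved by 0.43 to 0.23, 18.6% of all genes were higher and 8.25% lower, and the members were 4 higher (Cd79b, Cd81, Pik3r1 and Ptpn22) and 5 lower (Vav3, Rasgrp3, Cblb, Pik3ap1 and Nfkb1) with a median of −0.05. TMM thus turned the excess of lower calls over all genes into an excess of higher calls. Pik3cd, Grb2, Syk, Vav1 and Malt1, all with small negative ratios, became positive under TMM, and 19 of the 31 genes stayed below 0.

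**Figure D2:**
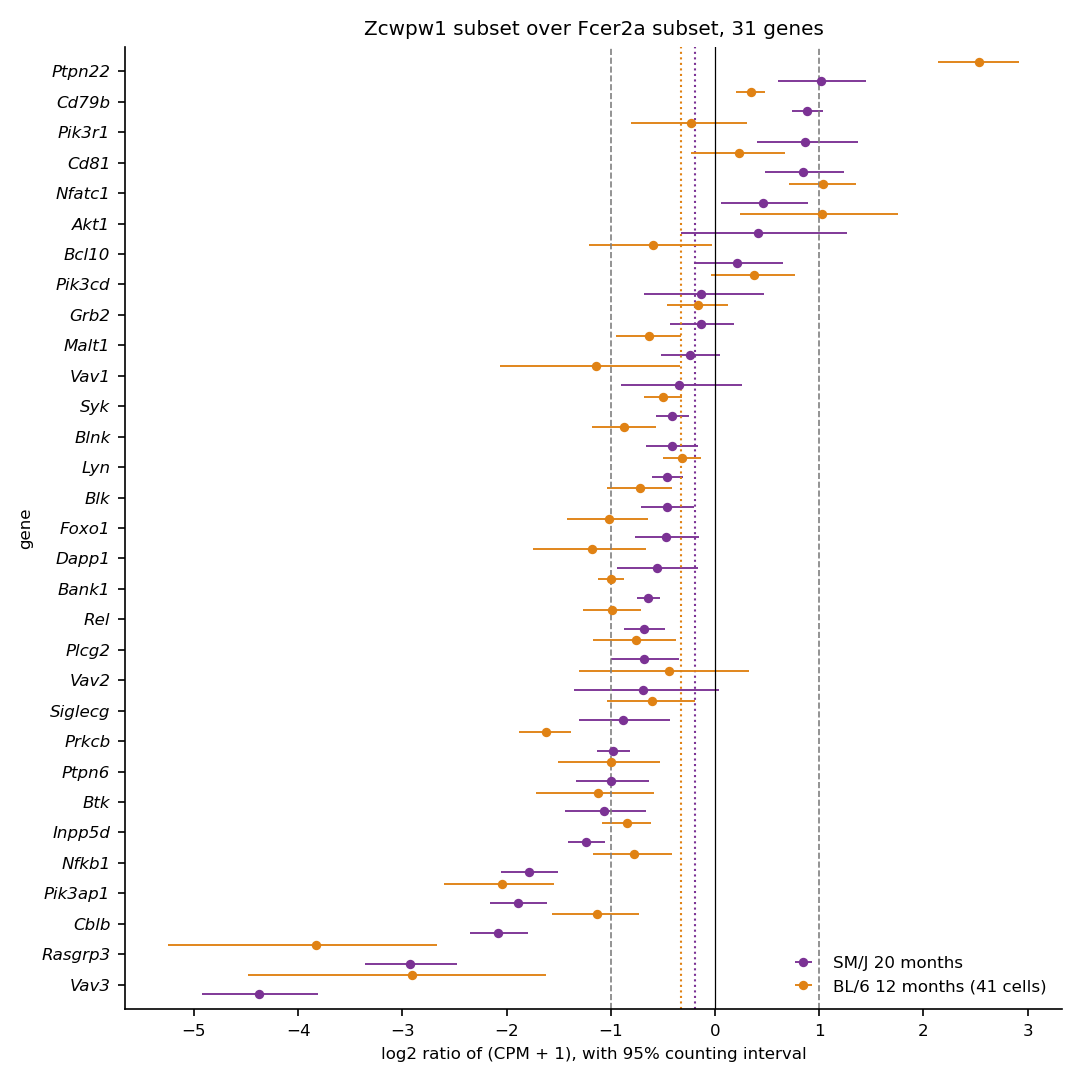
Log2 ratio of the Zcwpw1 subset over the Fcer2a subset for the 31 genes other than Cd79a, in SM/J at 20 months (purple, 719 cells) and BL/6 at 12 months (orange, 41 cells). Bars are 95% counting intervals, dashed lines mark 2-fold and dotted lines the median of all genes. Vav3 and Rasgrp3 lie farthest to the left in both libraries, and Ptpn22 lies past the right dashed line in both.

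The receptor chain Cd79b and the co-receptor Cd81 were higher in the Zcwpw1 subset. Cd79b, the partner chain of Cd79a, was at 1627, 1562 and 1650 CPM in the aliquots of the Zcwpw1 subset and at 853, 884 and 869 CPM in the Fcer2a aliquots. The aliquots did not overlap, and the log2 ratio was 0.89 with a 95% counting interval of 0.74 to 1.04. Cd81, a tetraspanin of the B cell co-receptor complex, was at 235, 256 and 244 CPM in the Zcwpw1 aliquots against 191, 130 and 116 CPM, a log2 ratio of 0.84 (0.48 to 1.23). Neither gene reached 2-fold by plain totals, while with TMM scaling both did, at 1.30 and 1.26. Cells were also thinned to 1000 UMIs each, which evens the depth at which a gene is seen. The subset rules had been applied to unthinned counts, so any choice of deeper cells by those rules remains. In thinned cells Cd79b was seen in 79.0% of Zcwpw1 cells and 59.3% of Fcer2a cells. It was seen in 1.48% of T-marked cells of the library (203 cells with at least 2 UMIs of the Cd3 genes and no Cd79a).

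Among the proximal kinases, the Src family members Lyn and Blk and the kinase Syk differed by less than 2-fold, with log2 ratios of −0.46, −0.46 and −0.41. All aliquots of the Zcwpw1 subset were below the Fcer2a aliquots for each of them. Btk, the Tec family kinase that activates phospholipase C gamma, was at 66.5, 61.9 and 72.5 CPM in the Zcwpw1 aliquots and at 225, 185 and 63.2 CPM in the Fcer2a aliquots. One Fcer2a aliquot fell inside the Zcwpw1 range, and the log2 ratio was −1.06 (−1.44 to −0.67). Btk passed 2-fold in 11 of 14 alternative settings, and the ratio was −0.65 with TMM scaling and −0.42 in cells of at least 5000 UMIs. That last limit, chosen after the data were seen, left 20 of the 113 Fcer2a cells of this library, fewer than the 50 asked of a subset, so its values here rest on few cells.

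Of the adaptors, Pik3ap1, which brings PI3 kinase to the receptor and is also known as BCAP, was lower. It stood at 69.5, 82.0 and 82.6 CPM in the Zcwpw1 aliquots and at 303, 210 and 358 CPM in the Fcer2a aliquots. The ranges were far apart, and the log2 ratio was −1.89 (−2.16 to −1.61). In thinned cells Pik3ap1 was seen in 7.79% of the Zcwpw1 subset and 29.2% of the Fcer2a subset, beside 0.985% of T-marked cells. The scaffold Bank1 had a log2 ratio of −0.64, the phosphoinositide-binding adaptor Dapp1 −0.56, the phospholipase C linker Blnk −0.42 and the Ras adaptor Grb2 −0.13. Blnk and Grb2 overlapped between the aliquots of the subsets.

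The PI3 kinase and Vav branch held the lowest ratio of the list. Vav3, a guanine nucleotide exchange factor that acts on small GTPases, was at 6.43, 3.00 and 3.80 CPM in the Zcwpw1 aliquots and at 56.1, 80.3 and 163 CPM in the Fcer2a aliquots. These were 43 UMIs in 719 cells against 49 UMIs in 113 cells, and the log2 ratio was −4.37 (−4.92 to −3.81), and −5.53 (with the 20 Fcer2a cells of at least 5000 UMIs) to −3.11 over 14 alternative settings. In thinned cells Vav3 was seen in 0 of 719 Zcwpw1 cells, and in 6.19% of Fcer2a cells. Unthinned, the shares were 2.09% and 15.9%. The count of 0 allows up to 0.417% of cells with a UMI at 1000 UMIs per cell and sets no limit on cells that express the gene.

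Vav3 was also found outside the B cells. It was at 563 CPM in monocyte-marked cells of SM/J at 20 months and at 110 CPM in T-marked cells, and monocyte markers were higher in the Fcer2a subset, as given above. Without the cells that carried markers of other types, the log2 ratio of Vav3 was −3.99, but Vav3 no longer passed the filter there and was not called. The other Vav genes were closer to the background, with −0.35 for Vav1 and −0.69 for Vav2, and both overlapped between aliquots. Pik3r1, the regulatory subunit of PI3 kinase, was higher, at 142, 152 and 168 CPM in the Zcwpw1 aliquots against 44.9, 86.5 and 100 CPM, a log2 ratio of 0.86 (0.40 to 1.37) and 1.28 with TMM scaling. The catalytic subunit Pik3cd had a log2 ratio of −0.13 and the kinase Akt1 0.41, with overlapping aliquots. The transcription factor Foxo1, which PI3 kinase signalling keeps out of the nucleus, had −0.47.

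In the calcium, protein kinase C and Ras branch, Rasgrp3 stood apart. It encodes an exchange factor that turns on Ras at the membrane in response to diacylglycerol. Its level was 14.4, 18.3 and 16.5 CPM in the Zcwpw1 aliquots and 135, 167 and 100 CPM in the Fcer2a aliquots, with no overlap. The log2 ratio was −2.93 (−3.36 to −2.48). It was −1.58 in cells of at least 5000 UMIs, where 20 Fcer2a cells were left, and −2.10 when each cell was placed by the first rule it met. In thinned cells Rasgrp3 was seen in 1.25% of Zcwpw1 cells (95% exact binomial interval 0.574% to 2.36%) and in 16.8% of Fcer2a cells. Monocyte-marked cells gave 1.73%, and T-marked cells gave 0 of 203, which allows up to 1.48% of cells with a UMI at this depth. These shares were not tested against each other.

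Prkcb, the protein kinase C that links diacylglycerol to NF-kappaB in B cells, came just short of 2-fold, at 406 CPM in the Zcwpw1 subset and 799 CPM in the Fcer2a subset. Its log2 ratio was −0.98 (−1.13 to −0.81), and the aliquots did not overlap. Plcg2, the phospholipase of the pathway, had −0.68 and Malt1, a protease of the NF-kappaB branch, −0.24. Bcl10, the partner of Malt1, had 0.21. The last 2 overlapped between aliquots.

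The inhibitors split. Ptpn22, a tyrosine phosphatase that acts on Src family kinases and their targets, was at 205, 235 and 237 CPM in the Zcwpw1 aliquots and at 89.8, 142 and 94.8 CPM in the Fcer2a aliquots. The log2 ratio was 1.01 (0.61 to 1.45), and in thinned cells the shares were 21.6% and 8.85%. Cblb, an E3 ubiquitin ligase, was at 70.1, 65.2 and 67.1 CPM against 281, 284 and 295 CPM, a log2 ratio of −2.08 (−2.35 to −1.79). Ptpn22 and Cblb thus sat on opposite sides with no overlap of aliquots in either. Both are also T cell genes, at 207 and 604 CPM in T-marked cells.

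Inpp5d, the SHIP1 lipid phosphatase, was at 308, 261 and 250 CPM in the Zcwpw1 aliquots and at 494, 785 and 595 CPM in the Fcer2a aliquots. Its log2 ratio was −1.24 (−1.41 to −1.05), and −0.82 with TMM scaling. The phosphatase Ptpn6 (SHP-1) had −0.99 and the sialic acid receptor Siglecg −0.88, so that 4 of the 5 inhibitors had ratios below 0, beside 58.8% of all genes. Of the 5, 2 were at least 2-fold lower (Cblb and Inpp5d), beside 17% of all genes, and with TMM scaling Cblb was, beside 8.25%. Ptpn22 is the least stable of the 8 calls, passing 2-fold in 8 of 14 alternative settings. Its log2 ratio was 0.0988 when each cell was placed by the first of the 3 rules it met, and 0.88 among cells of at least 5000 UMIs (20 Fcer2a cells).

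Among the transcription factors, Nfkb1, which encodes the p105 precursor of p50, was at 91.9, 77.5 and 82.0 CPM in the Zcwpw1 aliquots and at 292, 260 and 316 CPM in the Fcer2a aliquots. The log2 ratio was −1.78. Per cell, Nfkb1 was nearly equal, at 1.14 and 1.13 UMIs, while Cd79b was at 21.9 and 3.40 UMIs per cell and Vav3 at 0.0598 and 0.434. The NF-kappaB subunit Rel had a log2 ratio of −0.68 and the calcineurin-dependent factor Nfatc1 0.46, with no overlap of aliquots. Vav3, Rasgrp3, Cblb and Pik3ap1 were the 4 genes with fewer UMIs per Zcwpw1 cell than per Fcer2a cell, at 0.138, 0.434, 0.814 and 0.927 times the Fcer2a value.

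**Figure D3:**
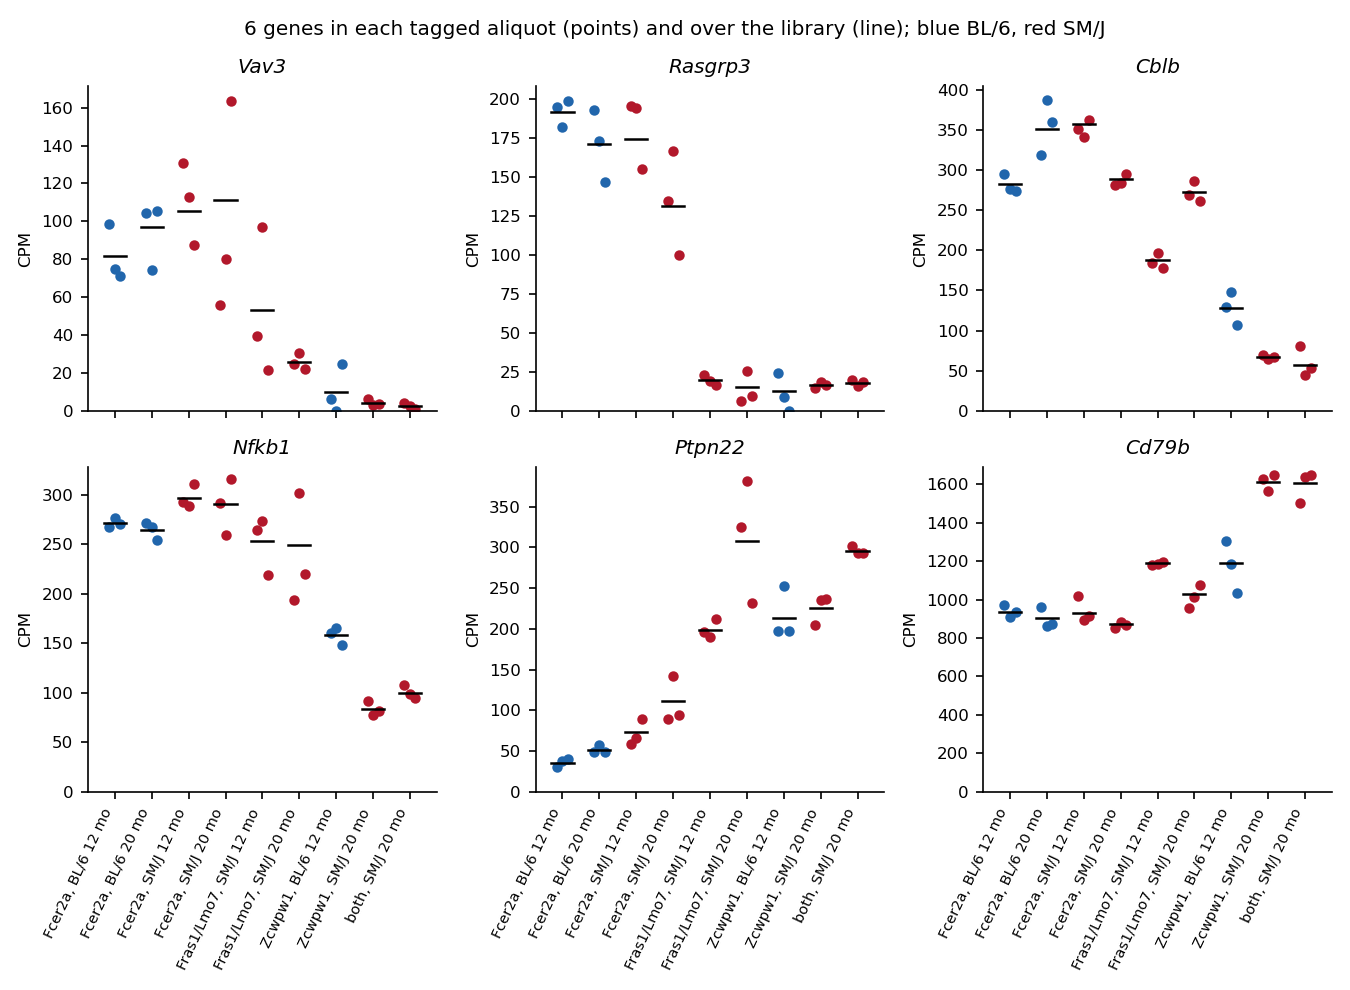
Level in CPM of Vav3, Rasgrp3, Cblb, Nfkb1, Ptpn22 and Cd79b in each subset and library. Points are the 3 tagged aliquots and lines the whole library, with BL/6 in blue and SM/J in red. The Zcwpw1 points of SM/J at 20 months lie below every Fcer2a point of that library for Vav3, Rasgrp3, Cblb and Nfkb1, and above them for Ptpn22 and Cd79b.

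Zcwpw1 cells were also found in BL/6 at 12 months. There were 41 of them, fewer than the 50 asked of a subset, and this comparison was added after the data were seen. It shares no library with the one above. Of the 31 genes, 3 were at least 2-fold higher than in the Fcer2a subset of that library (9.68%, beside 4.54% of 5269 genes) and 9 were lower (29%, beside 19.2%). The median log2 ratio was −0.76, against −0.33 over all genes. With TMM scaling 3 were higher and 4 lower, beside 7.83% and 12.2% of all genes, and the median of all genes moved to −0.08, so the share of lower members was then close to the background.

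Rasgrp3 was at 24.7, 8.71 and 0 CPM in the 3 BL/6 Zcwpw1 aliquots and 182 to 199 CPM in the Fcer2a aliquots, a log2 ratio of −3.83 (−5.25 to −2.67) that rests on 5 UMIs. Vav3 rests on 4 UMIs and had −2.91 (−4.48 to −1.62). Pik3ap1 was at 86.3, 69.7 and 73.9 CPM against 297 to 340 CPM, a log2 ratio of −2.05. These 3 genes were thus low in the Zcwpw1 cells of both strains. Prkcb had −1.62, Dapp1 −1.18, Vav1 −1.14, Cblb −1.13, Btk −1.12 and Foxo1 −1.02. Dapp1, Vav1, Cblb, Btk and Foxo1 fell short of 2-fold with TMM scaling, at −0.94, −0.91, −0.90, −0.89 and −0.78. Ptpn22 was at 197, 253 and 197 CPM against 30.0 to 40.8 CPM, a log2 ratio of 2.53 (2.14 to 2.92), and 1.76 in cells of at least 5000 UMIs. Nfatc1, at 246 CPM against 119 CPM, had 1.04 and Akt1, at 45.1 CPM against 21.6 CPM, 1.03. Nfkb1 did not reach 2-fold in BL/6, with a log2 ratio of −0.78.

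Btk, Cblb, Pik3ap1, Rasgrp3 and Vav3 were called lower in both strains, and with TMM scaling 3 of them were (Pik3ap1, Rasgrp3 and Vav3), which is 60% and 75% of the lists of 5 and 4, beside 217 of all genes, 56.1% and 38% of theirs. They were 5 of the 7 lower genes of SM/J at 20 months (71.4%) and 5 of the 9 of BL/6 at 12 months (55.6%). Among all genes that passed the filter in both, 446 were lower in both, 54.6% and 49.5% of the 2 lists. Ptpn22 was the 1 gene higher in both, 100% and 33.3% of the lists of 1 and 3, beside 128 of all genes, 36.5% and 59.3% of theirs. With TMM scaling it was 25% of 4 and 33.3% of 3, beside 32.3% and 68.8%. The 16 Zcwpw1 cells of SM/J at 12 months were too few for a ratio. They had 10.1 CPM of Vav3, 15.1 of Rasgrp3, 75.5 of Pik3ap1, 141 of Cblb, 131 of Nfkb1 and 262 of Ptpn22.

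The 180 cells of SM/J at 20 months that met the Zcwpw1 and the Fras1/Lmo7 rule together are another set of cells from the same library, compared with the same Fcer2a cells. Their comparison was also added after the data were seen. In them 8 genes were lower (25.8% of 31, beside 14.9% of all genes) and 1 was higher (3.23%, beside 11%), and with TMM scaling 6 were lower and 3 higher, beside 9.11% and 18.0% of all genes, whose median moved from −0.11 to 0.20. Vav3 had a log2 ratio of −4.93, Rasgrp3 −2.81, Pik3ap1 −2.49, Cblb −2.30, Nfkb1 −1.53, Inpp5d −1.51 and Ptpn22 1.40. Siglecg, a sialic acid receptor that damps calcium signalling, had −1.15 there, and Btk was the other lower gene. Against the 20 Fcer2a cells of at least 5000 UMIs, Rasgrp3 had −1.47 and Btk −0.42, and Siglecg turned to 0.33. These 20 cells are fewer than the 50 asked of a subset, while all 180 double-rule cells stayed.

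Promoter windows of 4 genes that were low are shown because a B cell factor motif stands in them. RefSeq promoter sequences (GRCm38.p6, 250 bases before to 50 after a start) were at hand for 26 of the 32 genes. Both strands were searched for the EBF1 motif (TCCC and GGGA with 2 free bases between them), the octamer ATGCAAAT, the kappaB motif (GGG and TTTCC with 2 free bases between them) and the PU.1 motif GAGGAAGT. The EBF1 motif stood in 2 of the 26 (Foxo1 and Vav3), beside 1.06% of all 27025 genes with a promoter sequence, and the PU.1 motif in 5 (Inpp5d, Rel, Grb2, Vav1 and Rasgrp3), beside 3.69%. The octamer was found in Prkcb and Blnk, beside 1.97%, and the kappaB motif in Rel, beside 1.89%. No match was found in Pik3ap1, Cblb, Btk or Syk, which were also low. The windows below lie on the plus strand upstream of the gene and overlap no annotated exon, with the motif in capitals. The window of Vav3 is chr3:109340433-109340477, that of Foxo1 chr3:52268220-52268279, that of Rasgrp3 chr17:75435830-75435887 and that of Inpp5d chr1:87620267-87620311. A match is a description of the letters and says nothing about binding.
Vav3, EBF1 motif: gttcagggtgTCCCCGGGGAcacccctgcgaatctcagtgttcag
Foxo1, EBF1 motif: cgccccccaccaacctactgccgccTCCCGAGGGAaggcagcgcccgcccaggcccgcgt
Rasgrp3, PU.1 motif: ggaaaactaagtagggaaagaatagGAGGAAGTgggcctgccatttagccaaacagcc
Inpp5d, PU.1 motif: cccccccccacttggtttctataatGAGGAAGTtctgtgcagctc

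The Fras1/Lmo7 subset of SM/J at 12 months (303 cells) was compared with the Fcer2a subset of the same library (314 cells) to see whether another group of Fcer2a-negative cells showed other members. Rasgrp3, Foxo1, Inpp5d and Syk were at least 2-fold lower and Nfatc1 and Ptpn22 higher. Of the 30 genes that passed the filter (Akt1 did not), the 4 lower ones were 13.3%, beside 6.86% of 5493 genes, and the 2 higher ones 6.67%, beside 5.43%. The median log2 ratio was −0.36, against −0.05 over all genes. The Fras1/Lmo7 cells of SM/J at 20 months (113 cells, added after the data were seen) had 3 lower genes (10% of 30, beside 4.77%) and 1 higher (3.33%, beside 4.9%), with a median of −0.11. Follicular markers summed to 105 and 82.2 CPM in these cells at 12 and 20 months. Plasma cell markers summed to 1694 CPM at 12 months, against 344 CPM in the Fcer2a subset, and to 1029 against 408 CPM at 20 months. B-1 markers summed to 554 against 114 CPM and to 370 against 225 CPM. Sdc1 at 12 months, and Xbp1, Cd5 and Itgam at 20 months, went the other way. Haemoglobin genes, which come from red cells, reached 7509 CPM in the Fcer2a subset at 12 months (158 to 10616 CPM over aliquots) and 7838 CPM in the Fras1/Lmo7 subset at 20 months. Their part in the ratios was not tested.

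Rasgrp3 was at 23.2, 19.4 and 16.7 CPM in the Fras1/Lmo7 aliquots at 12 months and at 196, 194 and 155 CPM in the Fcer2a aliquots. The log2 ratio was −3.08 (−3.53 to −2.64), and at 20 months it was −3.00 (−3.86 to −2.19), with −1.89 after thinning to 2000 UMIs, which left 37 Fras1/Lmo7 cells. Rasgrp3 was thus low in these cells at both ages. In thinned cells it was seen in 2.64% of Fras1/Lmo7 cells and 16.9% of Fcer2a cells at 12 months, beside 0 of 319 T-marked cells, which allows up to 0.94%.

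Foxo1 was at 87.1, 122 and 96.4 CPM in the Fras1/Lmo7 aliquots against 261, 218 and 307 CPM, a log2 ratio of −1.38 (−1.62 to −1.14) at 12 months and −0.67 at 20 months. Syk, the kinase that binds phosphorylated Cd79 chains, was at 381, 419 and 434 CPM against 763, 867 and 860 CPM, with −1.03 at 12 months and −0.74 at 20 months. Inpp5d had −1.06 and −0.54. Foxo1, Syk and Inpp5d therefore kept their direction but passed 2-fold only at 12 months, and whether the ages differ was not tested. At 12 months Syk passed it in 8 of 14 alternative settings, with −0.97 under TMM scaling and −0.59 at a mitochondrial limit of 5%, where Inpp5d had −0.67 and 48 Fras1/Lmo7 cells were left.

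Nfatc1, a factor switched on by calcium through calcineurin, was at 231, 224 and 281 CPM in the Fras1/Lmo7 aliquots and at 79.0, 76.2 and 99.6 CPM in the Fcer2a aliquots at 12 months. The log2 ratio was 1.49 (1.19 to 1.81), and at 20 months 0.86. Ptpn22 was at 196, 190 and 212 CPM against 58.4, 65.7 and 89.6 CPM, a log2 ratio of 1.42 (1.10 to 1.76) at 12 months and 1.46 (1.02 to 1.92) at 20 months. When each cell was placed by the first rule it met, the ratio at 20 months was 0.39. The aliquots did not overlap for either gene at either age. Blk, a Src family kinase, had 0.87 at 12 months, while at 20 months its 2 levels were close, 305 and 315 CPM.

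Genes that were low in the Zcwpw1 cells did not all share that pattern here. Cblb had a log2 ratio of −0.92 at 12 months and one of −0.08 at 20 months that turned to 0.02 with TMM, Nfkb1 −0.23 and −0.22, Pik3ap1 −0.79 and −1.30, and Vav3 −0.98 and −2.05. At 20 months Pik3ap1 ran from −2.22 to −0.71 over 13 alternative settings and Vav3 from −3.15 to −0.61, each short of 2-fold in 1 of them. The −2.22 and −0.61 came from thinning to 2000 UMIs (37 Fras1/Lmo7 cells) and the −3.15 from cells of at least 5000 UMIs (20 Fcer2a cells). The Vav3 level at 12 months was uneven, at 39.5, 96.9 and 21.8 CPM over the aliquots. In SM/J at 20 months the Zcwpw1, Fras1/Lmo7 and double-rule cells were set against the same 113 Fcer2a cells, so these ratios are not independent of each other. Side by side, Nfkb1 was at 83.8 CPM in the Zcwpw1 subset, 249 CPM in the Fras1/Lmo7 subset and 290 CPM in the Fcer2a subset. Cblb was at 67.5, 273 and 288 CPM in the same order. Within the Fras1/Lmo7 subset, 0 of 30 genes were 2-fold higher or lower at 20 months than at 12 months (beside 2.12% and 1.68% of all genes). The highest were Bank1 (0.80), Ptpn22 (0.63) and Cblb (0.53), and the lowest Vav3 (26.0 CPM against 53.0 CPM, just short of 2-fold), Rel (−0.62) and Blk (−0.54). With TMM scaling Vav3 was lower, at −1.03, as 1 of 30 genes, beside 1.83% of all genes lower and 1.92% higher.

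**Figure D4:**
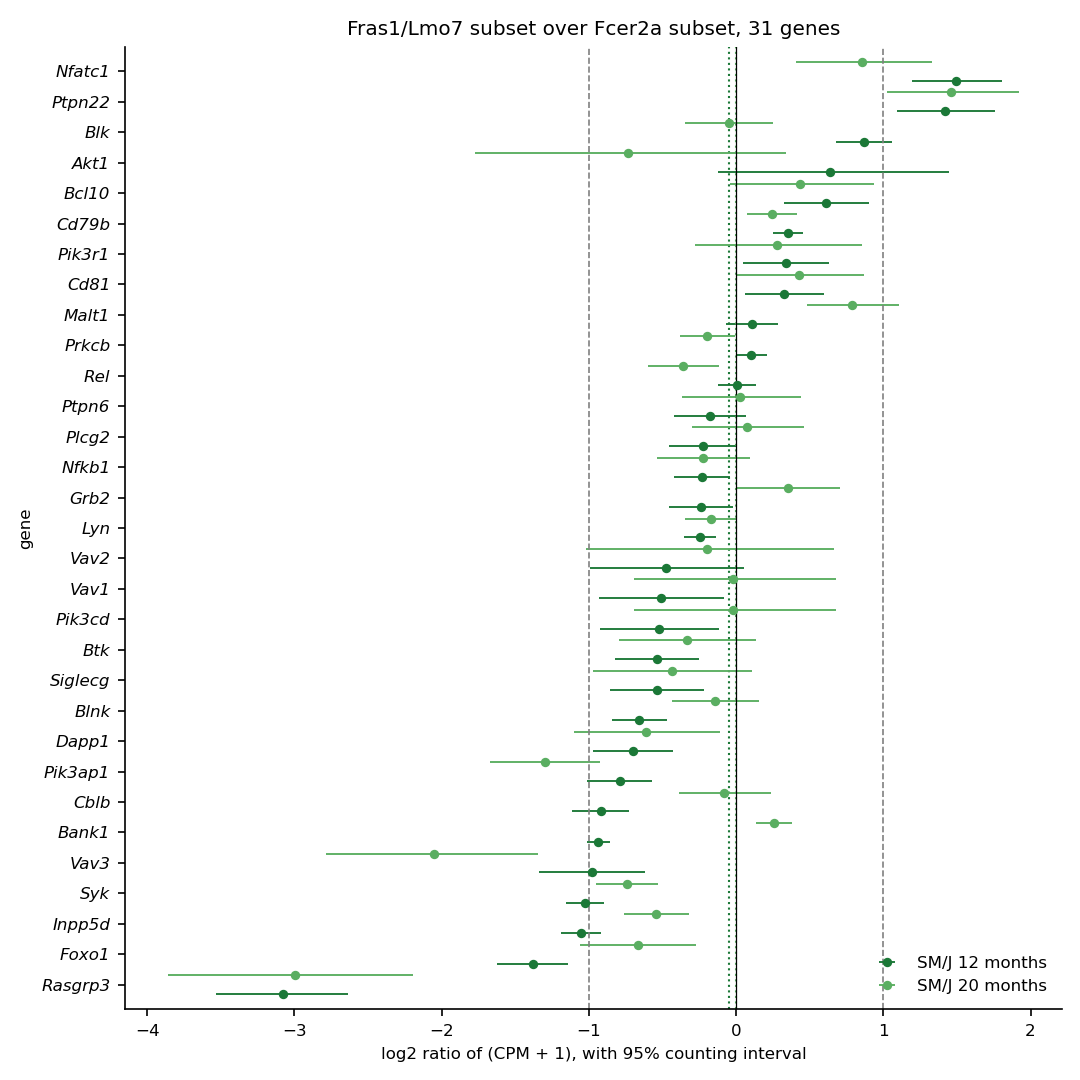
Log2 ratio of the Fras1/Lmo7 subset over the Fcer2a subset of the same library for 31 genes in SM/J at 12 and 20 months. Bars are 95% counting intervals, dashed lines mark 2-fold and dotted lines the median of all genes. Rasgrp3 lies near −3 at both ages, and Ptpn22 and Nfatc1 lie to the right at both.

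Within the Fcer2a subset the genes were compared between ages and strains, since all 4 libraries hold these cells. By plain totals no gene was 2-fold higher or lower with age in either strain. In BL/6 this was 0 of 31 genes, beside 0.516% of 5624 genes higher and 0.284% lower, and in SM/J 0 of 30 genes, beside 1.17% and 0.959% of 4276. With TMM scaling 0 members were called as well, beside 0.35% of all genes higher and 0.313% lower in BL/6. The SM/J shares were then 1.03% and 1.5%. Other settings did call members. Placing cells by the first rule they met gave 3 in SM/J (Akt1, Rasgrp3 and Ptpn22, beside 5.16% of all genes in either direction), and leaving out cells with markers of other types gave Vav3 (beside 2.06%). With no filter on low genes Akt1 was called in SM/J (beside 23.6%), and in its 20 and 54 cells of at least 5000 UMIs Rasgrp3 was (beside 5.86%). In BL/6 thinning to 2000 UMIs gave Ptpn22 (beside 1.19%). The medians of the members were 0.11 and −0.09. Ptpn22 had the highest ratio with age in both strains, 0.49 in BL/6 and 0.59 in SM/J. In BL/6 it was followed by Pik3r1 (0.46) and Vav2 (0.44), and the lowest were Bcl10 (−0.21), Nfatc1 (−0.19) and Blk (−0.19). In SM/J it was followed by Nfatc1 (0.39) and Blk (0.37), and the lowest were Pik3r1 (−0.41), Rasgrp3 (−0.41) and Bank1 (−0.39). Akt1 did not pass the filter in SM/J, with 14 and 17 UMIs.

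Between strains, Ptpn22 alone was past 2-fold in the Fcer2a subset. It was at 30.0, 37.8 and 40.8 CPM in the BL/6 aliquots and at 58.4, 65.7 and 89.6 CPM in the SM/J aliquots at 12 months, and at 49.1, 57.7 and 48.4 CPM against 89.8, 142 and 94.8 CPM at 20 months. Every SM/J aliquot was above every BL/6 aliquot of its age. The 6 T cell markers, whose cells also express Ptpn22, summed to 16.6 and 12.5 CPM in the Fcer2a subset of BL/6 and SM/J at 12 months and to 23.4 and 49.9 CPM at 20 months, and their part in the ratio was not tested. At 12 months the log2 ratio was 1.01 (0.62 to 1.39). At 20 months it was 1.11 (0.58 to 1.63), and Ptpn22 passed 2-fold in 7 and 11 of 14 alternative settings. As 1 of 30 genes it was 3.33%, beside 2.19% of 5528 and 2.23% of 5207 genes, which is near the background. No member was 2-fold lower, beside 1.83% and 5.03% of all genes.

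Siglecg was the lowest gene in SM/J at both ages. It was at 115 CPM against 191 CPM at 12 months, a log2 ratio of −0.73, and at 109 CPM against 215 CPM at 20 months, −0.98 (−1.44 to −0.54). Pik3cd, the catalytic subunit of PI3 kinase delta, had −0.65 at 12 months and −0.97 at 20 months, at 61.3 CPM against 121 CPM. For Siglecg and Pik3cd the aliquots of the strains did not overlap at either age. Blk had −0.61 at 12 months and −0.05 at 20 months, and Bank1 −0.35 and −0.85. On the higher side were Cd81 (0.46 and 0.65), Vav3 (0.36 and 0.19) and Bcl10 (0.15 and 0.35). The median was −0.11 at 12 months and −0.36 at 20 months, beside −0.05 and −0.12 over all genes.

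**Figure D5:**
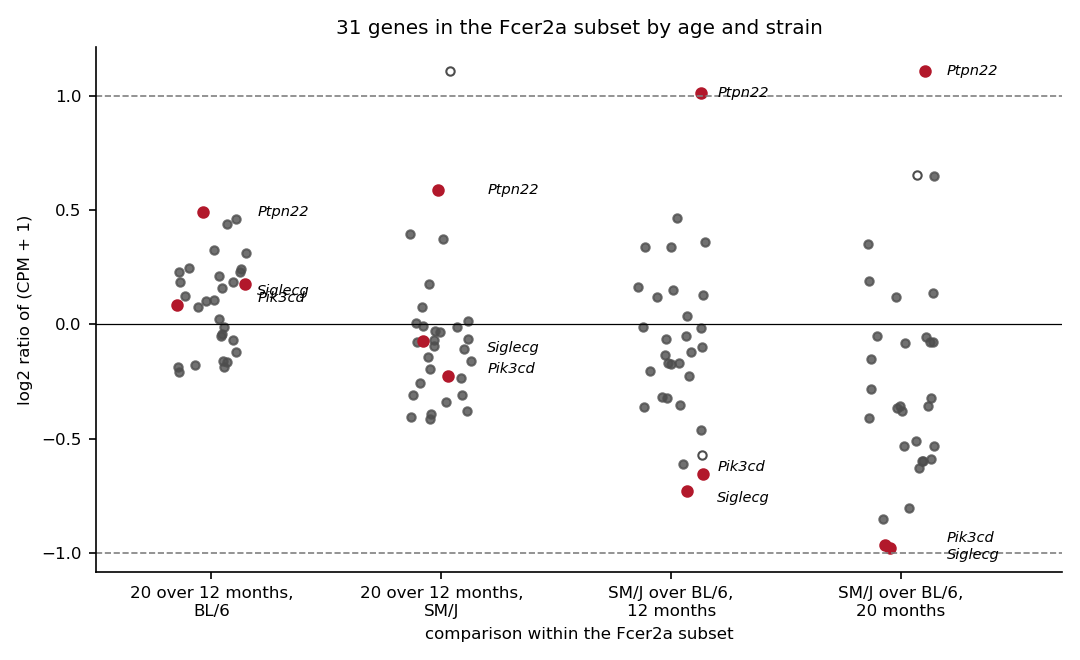
Log2 ratios of the 31 genes within the Fcer2a subset for age in BL/6, age in SM/J, strain at 12 months and strain at 20 months. Open circles mark a gene that did not pass the filter, and Ptpn22, Siglecg and Pik3cd are drawn in red. Nearly all points lie between the dashed 2-fold lines, and Ptpn22 is highest in both strain panels.

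Over all cells with a Cd79a UMI, whatever the subset, the age comparison mixes any change within a subset with the change in subset shares. In BL/6 0 of 31 genes were past 2-fold, beside 2.21% of 5743 genes higher and 0.226% lower. The highest were Vav3 (0.52), Pik3r1 (0.31) and Dapp1 (0.21), and the lowest Nfatc1 (−0.51), Blk (−0.44) and Cd81 (−0.43). Plasma cell markers went from 442 to 2679 CPM with age in these BL/6 cells. Monocyte and macrophage markers went from 907 to 1849 CPM, T cell markers from 43.3 to 97.5 CPM and erythroid markers from 791 to 540 CPM. The part of these markers' cells in the ratios was not tested. In SM/J 5 of 31 genes were lower at 20 months (16.1%, beside 5.25% of 5641 genes) and 0 were higher, beside 3.56%. With TMM scaling 3 were lower (Nfkb1 at −0.92 and Pik3ap1 at −0.89 fell short), beside 3.39% of all genes lower and 5.32% higher, and the median of all genes moved from −0.09 to 0.10.

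The 5 genes were Vav3, Cblb, Rasgrp3, Nfkb1 and Pik3ap1. Vav3 was at 118, 137 and 139 CPM in the SM/J aliquots at 12 months and at 39.7, 40.8 and 45.5 CPM at 20 months, a log2 ratio of −1.62 (−1.75 to −1.49). Cblb had −1.37, Rasgrp3 −1.27, Nfkb1 −1.10 and Pik3ap1 −1.08, and the aliquots of the ages did not overlap for any of the 5. As a mean of each cell's own CPM, Rasgrp3 (−1.06) alone stayed past 2-fold, with Cblb at −0.94, Vav3 at −0.92 and Nfkb1 and Pik3ap1 at −0.70. In cells of at least 5000 UMIs it was Rasgrp3 that fell short, at −0.60, with Vav3 at −1.86, Cblb at −1.40, Nfkb1 at −1.24 and Pik3ap1 at −1.13. The Zcwpw1 subset, where these genes were low, was 1.15% of the Cd79a cells at 12 months and 41% at 20 months. The rule is a count of UMIs, and the Cd79a cells had a median of 4546 UMIs at 12 months and 9743 at 20 months. When cells were thinned to 2000 UMIs before the rules, the subset held 4 of 1230 Cd79a cells at 12 months and 202 of 1592 at 20 months. In the Fcer2a subset the same genes had log2 ratios with age of 0.08 for Vav3, −0.31 for Cblb, −0.41 for Rasgrp3, −0.03 for Nfkb1 and 0.17 for Pik3ap1. Per cell, Nfkb1 was at 1.51 UMIs at 12 months and 1.5 at 20 months.

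In the rest of the Cd79a cells, by plain totals and the main filters, at most 2 of the genes differed 2-fold from the Fcer2a subset of the same library. Other settings moved these counts, as the last section says. In BL/6 at 12 months 1 of 31 was higher, Ptpn22 with a log2 ratio of 1.23 (beside 2.21% of 5644 genes), and 0 were lower (0.0709%). At 20 months 0 were past 2-fold (beside 5.85% and 1.07%), and the highest was Ptpn22 at 0.80 and the lowest Bank1 at −0.97 and Rasgrp3 at −0.85. With a mitochondrial limit of 5%, Blk and Bank1 were lower there, 2 of 31 genes, beside 2.71% of all genes lower and 7.84% higher. In SM/J at 12 months Akt1 was higher (1.08, and 0.53 without cells that carried markers of other types) and Rasgrp3 lower (−1.91), beside 5.5% and 1.52% of all genes. At 20 months Rasgrp3 was lower (−1.88) and 0 genes were higher, beside 4.05% and 7.23% (2.56% and 8.49% with TMM, where the same member counts held). The rest held more RNA of other cell types, with monocyte and macrophage markers at 1600 to 2778 CPM in the 4 libraries against 240 to 610 CPM in the Fcer2a subset. Plasma cell markers summed to 586 to 3956 CPM against 227 to 408 CPM, with the highest value in BL/6 at 20 months. T cell markers summed to 67.8 to 139 CPM against 12.5 to 49.9 CPM. The part of this RNA in these ratios was not tested.

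A list of 24 other genes of the pathway, of which Nfatc2 and Cd5 did not pass the filter, gives the setting. In the Zcwpw1 subset of SM/J at 20 months 2 of 22 were higher, beside 8.79% of all genes, and 9 lower, beside 17%. With TMM scaling 2 were higher, beside 18.6% of all genes, and 6 lower, beside 8.25%. The immunoglobulin heavy chains went apart, with a log2 ratio of 1.62 for Ighm, the constant region of IgM, and −5.65 for Ighd, that of IgD. The adaptor Dok3 had 1.53. Among the lower were the complement receptor Cr2 (−6.51), the inhibitory receptors Cd72 (−5.10) and Fcgr2b (−1.71), the calcium channel Itpr2 (−1.88), Nfatc3 (−1.49), the exchange factor Rasgrp2 (−1.23) and the ubiquitin ligase Cbl (−1.06). Cr2 was at 0.205 CPM against 109 CPM, so its ratio depends on the 1 CPM added to each level. Cr2 and Ighd mark the same follicular cells as the Fcer2a rule.

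In the Zcwpw1 cells of BL/6 at 12 months 1 of the 22 was higher, Ighm at 1.36, beside 4.54% of all genes, and 8 were lower, beside 19.2%. Among them were Ighd (−4.54), Cd72 (−2.77) and Nfkbia (−1.72). With TMM scaling 2 were higher, beside 7.83% of all genes, and 6 lower, beside 12.2%. In the Fras1/Lmo7 subset of SM/J at 12 months 0 of 22 were higher and 8 lower, beside 5.43% and 6.86% of all genes. With TMM scaling the counts were 0 and 7, beside 5.88% and 6.14%. By plain totals the lower ones included Cr2 (−4.91), Cd72 (−3.49), Fcgr2b (−3.25), Ighd (−2.66), Cd22 (−1.42), Lat2 (−1.29) and Ptprc (−1.02). In the Fcer2a subset 0 of these genes were past 2-fold with age or between strains, beside shares of all genes from 0.284% to 1.17% for age and from 1.83% to 5.03% for strain in either direction, so a count of 0 is near the background.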

How the data were processed

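The authors deposited raw UMI counts per gene and cell, made with Cell Ranger 7.0.1 per the file headers. The build mm10 and Seurat 4.3.0 are named in the submitters' processing notes. Cells with at least 500 UMIs, 200 genes and at most 10% mitochondrial counts were kept, and doublets called by Scrublet (scanpy 1.11.5, expected rate 0.06) in each sequenced sample were left out (41, 42, 21 and 21 cells). Cells were given to 3 aliquots per library by their leading tag oligo. Counts were summed per subset and library and scaled to CPM of all gene UMIs. A ratio is log2((CPM + 1)/(CPM + 1)), and its 95% interval is conditional binomial. UMIs of 1 library are not replicates, so intervals and limits for a count of 0 cover counting error only. A gene was called at 2-fold among genes with a mean of at least 20 CPM and 50 UMIs. Cells were thinned to 1000 UMIs for shares, which leaves out 265 shallower cells, with exact Clopper-Pearson intervals. TMM factors came from edgeR 4.0.16. The ratio script was tested on simulated data. Genes were named by rule: those past 2-fold, or the 3 highest and lowest. Members and lists were chosen with earlier results of these data known. Alternatives covered pseudocount, filter, fold, scaling, cell filters, doublets, gates and depth. Some genes of the lists are not reported here by name.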

Additional observations from a re-analysis of the deposited data

Results flagged for a closer look

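In the Fcer2a subset, 4 genes had age ratios of opposite sign in the strains, with all 9 aliquot pairs of each strain moving the same way. They were 4 of 30 genes that passed the filter in both strains (13.3%), beside 94 of all 4198 such genes (2.24%). The 2 shares were not matched for level, and a gene with more UMIs can meet this rule more readily. As log2 ratios of 20 over 12 months, Dapp1 was 0.24 in BL/6 and −0.34 in SM/J, Pik3r1 0.46 and −0.41, Prkcb 0.10 and −0.23, and Cblb 0.31 and −0.31. TMM scaling moved the median of all genes by −0.08 in BL/6 and −0.07 in SM/J, which is close in size to the Prkcb ratio in BL/6. Over all Cd79a cells the same held for Cd79b (−0.16 in BL/6 and 0.37 in SM/J), Cd81 (−0.43 and 0.41) and Vav3 (0.52 and −1.62), 3 of 31 genes (9.68%), beside 535 of 5171 (10.3%). The differences between the strains were not tested, since there was 1 library per strain and age. None of these ratios but that of Vav3 in SM/J reached 2-fold.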

How the results depend on the processing

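No paired analysis was possible because the labels give 1 sequenced sample per strain and no replicates to pair. A fit of age with strain as a block, which would take the strains as replicates of each other, was not run. The count of members past 2-fold was recomputed in up to 14 settings. Of these counts 159 stayed within 1.5 times the reported one and 59 did not. A 1.5-fold limit gave, with the share of all genes past it in brackets, 18 (49.6%) for the Zcwpw1 subset of SM/J, 23 (48%) for that of BL/6, 18 (50.2%) for the cells of both rules, and 14 (28%) and 9 (26.4%) for the Fras1/Lmo7 subset at 12 and 20 months. It gave 4 (15.3%) between the ages of that subset, 4 (14.2%) and 10 (27.5%) for SM/J over BL/6 in Fcer2a cells, 1 (11.4%) for age in Fcer2a cells of SM/J, 11 (25.7%) for all Cd79a cells of SM/J, and 2 (6.22%), 7 (19.4%), 7 (18.3%) and 12 (28.7%) for the rest. From here on the brackets give the share of all genes past 2-fold. TMM scaling gave 7 (20.1%) for the Zcwpw1 subset of BL/6 and 3 (8.71%) for all Cd79a cells of SM/J. It gave 1 (3.75%) for age in the Fras1/Lmo7 subset and 0 (3.86%) for the strains at 12 months. Placing each cell by the first rule it met gave 5 (10.3%) for the Zcwpw1 subset of SM/J and 2 (4.58%) for the Fras1/Lmo7 subset at 20 months. It gave 3 (5.16%) for age in Fcer2a cells of SM/J, 3 (12.7%) for the strains at 20 months and 2 (8.04%) for the rest of SM/J at 20 months. Thinning to 2000 UMIs first gave 1 (1.19%) for age in Fcer2a cells of BL/6. It gave 3 (5.85%) for all Cd79a cells of SM/J and 3 (10.5%) for the strains at 20 months. It also moved the counts for the Fras1/Lmo7 ages, for that subset at 20 months and for the rest of SM/J at both ages. Cells' own CPM gave 1 (5.14%) for all Cd79a cells of SM/J. For the strains at 12 months the count was also 0 with a pseudocount of 5 (3.15%) and mitochondrial limits of 5% (4.62%) or 20% (3.99%). It was 0 as well with doublets kept (3.67%) or 2 Cd79a UMIs (4.0%), and it also moved in cells of at least 5000 UMIs. For the strains at 20 months it was 2 with cells' own CPM (8.45%), with 20% mitochondrial counts (7.26%) or with doublets kept (7.09%). It was 3 without cells of other-type markers (7.95%), and it also moved in cells of at least 5000 UMIs. The counts that moved and have no value above lay between 0 and 8. Their shares of all genes are not given, so no reading is drawn from them. Siglecg in the cells of both rules reversed to 0.326 in cells of at least 5000 UMIs, a setting chosen after seeing the data that left 20 Fcer2a cells of SM/J at 20 months. Alternatives were computed down to 20 cells a subset, fewer than the 50 asked otherwise. For named ratios, medians and sums, 891 values stayed within the spread and 197 moved. With too few cells left, the Zcwpw1 subset of BL/6 had no value after thinning to 2000 UMIs or at 5% mitochondrial counts, the Fras1/Lmo7 subset at 20 months none at 5%, and the cells of both rules none after thinning or by the first rule met. The low Vav3 and Rasgrp3 levels rest on few UMIs.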
